A study of Homo sapiens with 42 samples.

Results

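THP-1 is a human monocytic leukaemia cell line, and the comparison described here sets THP-1 cells given ML-60218 in the presence of cycloheximide (CHX) against THP-1 cells given CHX without it. The libraries were chosen by their labels, 3 in each group, which makes 6 of the 42 libraries of the study. The cells given both had 10 µg/ml CHX for 4.5 h with 25 µM ML-60218 (ML6 in the labels) for 4 h, and the controls had 10 µg/ml CHX for 4.5 h. Beside them stood 3 libraries with 25 µM ML-60218 for 4 h and no CHX, and 3 libraries labelled DMSO. The remaining libraries of the study came from HEK293T cells that were given siRNA or antisense oligonucleotides against POLR3G, siRNAs against POLR3GL, a MAF1 overexpression construct or the matching controls, and were not used. The THP-1 cells are labelled as monocytes of 1 supplier batch. The pairing of drug and CHX asks which RNA responses to the drug appear while protein synthesis is inhibited. How far translation was blocked, and whether RNA polymerase III transcription fell, was not measured in these libraries of poly(A)-selected RNA.

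ML-60218 is an inhibitor of RNA polymerase III, the enzyme that makes tRNAs, 5S rRNA and other short untranslated RNAs. CHX stops the elongation step of translation on cytosolic ribosomes. Genes that respond to a signal through proteins already in the cell, such as the immediate early genes of the EGR, FOS and NR4A families, do so under CHX, and many of their RNAs are also stabilised by it. Genes that need a newly made intermediate factor do not. In the same way the sterol genes are driven by SREBP-2, which waits as a precursor in the endoplasmic reticulum and is released by proteolysis when sterols fall, and PPAR receptors are activated by fatty acid ligands. INSIG1 is a short-lived protein that retains the SREBP precursor, so a translation block can itself touch this pathway.

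The promoters of 4 of the genes described below are shown first, because they belong to the early and sterol groups on which the results turn and hold the motif letters of factors that act on such genes. Of the 36 early genes called higher, 30 had a promoter in the RefSeq table (GRCh38.p14), as did 15 of 22 sterol genes and 10 of 11 genes of fatty acid use, and 11320 of the genes tested had one. The searched window ran from 250 bases before each start to 50 bases after it, on both strands. The 250 bases before the start are printed 5′ to 3′ with the motif in capitals.
EGR1, chr5:138465229-138465478, plus strand, serum response letters CCATATTAG: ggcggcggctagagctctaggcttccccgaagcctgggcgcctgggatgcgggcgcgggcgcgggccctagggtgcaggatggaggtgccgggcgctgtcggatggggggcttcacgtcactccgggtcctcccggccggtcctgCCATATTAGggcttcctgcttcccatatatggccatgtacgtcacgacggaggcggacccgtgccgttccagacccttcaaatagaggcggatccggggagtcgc
JUND, chr19:18281623-18281872, minus strand, cAMP response letters TGACGTCA: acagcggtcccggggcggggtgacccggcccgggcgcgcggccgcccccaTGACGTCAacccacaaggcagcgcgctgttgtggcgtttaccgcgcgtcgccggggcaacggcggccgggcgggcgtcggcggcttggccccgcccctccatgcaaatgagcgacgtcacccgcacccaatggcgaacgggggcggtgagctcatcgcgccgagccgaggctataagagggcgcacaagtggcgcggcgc
MAFF, chr22:38201744-38201993, plus strand, cAMP response letters TGACGTCA: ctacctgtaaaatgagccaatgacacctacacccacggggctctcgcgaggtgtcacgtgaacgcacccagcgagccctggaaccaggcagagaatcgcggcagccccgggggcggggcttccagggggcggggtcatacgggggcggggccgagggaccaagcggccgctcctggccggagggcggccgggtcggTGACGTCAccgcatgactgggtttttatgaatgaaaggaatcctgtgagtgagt
SREBF2, chr22:41832855-41833104, plus strand, sterol letters TCACCCCAC: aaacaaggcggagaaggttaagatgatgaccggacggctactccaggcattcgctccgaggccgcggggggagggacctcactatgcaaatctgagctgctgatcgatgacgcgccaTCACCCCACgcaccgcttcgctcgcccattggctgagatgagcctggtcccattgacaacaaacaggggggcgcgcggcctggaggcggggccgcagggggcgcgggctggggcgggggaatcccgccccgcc
The motif began 105 bases before the start in EGR1, 200 bases before it in JUND, 54 bases before it in MAFF and 133 bases before it in SREBF2. CCATATTAG stood in 1 of the 30 early promoters and in 9 of all 11320 (0.0795%). Only this exact spelling was searched, so serum response elements with other letters were not counted or put in capitals. TGACGTCA stood in 3 of the 30, those of JUND, MAFF and PPP1R15A, against 3.02% of all promoters. TCACCCCAC stood in 1 of the 15 sterol promoters and in 1 of the 30 early promoters, that of TIPARP, against 0.451% of all. The letters GCGTG, read by the aryl hydrocarbon receptor among others, stood in 13 of the 15 sterol promoters (86.7%) and in 20 of the 30 early promoters (66.7%), against 49.3% of all. The EGR letters GCGGGGGCG stood in 5 of the 30 early promoters, among them those of NAB1 and NAB2, and in 4 of the 10 promoters of fatty acid genes, against 7.99% of all. The AP-1 letters TGANTCA, heat shock letters GAANNTTC, NF-kB letters GGACTTTCC, NRF2 letters TGACNNNGC and metal letters TGCACAC were also searched. TGACNNNGC stood in 7 of the 30 early promoters (23.3%) and 14.8% of all. TGANTCA stood in 1 of the 30 (3.33%, against 4.68% of all) and GAANNTTC in 2 (6.67%, against 4.66%), while GGACTTTCC (0.371% of all) and TGCACAC (2.93% of all) stood in none. None of these 5 stood in a sterol promoter, and TGACNNNGC and TGCACAC each stood in 1 of the 10 promoters of fatty acid genes. Matches of TGACNNNGC and TGANTCA can overlap, as can those of GCGTG and GCGGGGGCG. These matches describe letters and are not sites of binding.

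The 12 THP-1 libraries held 37763779 to 44762618 estimated reads each. Monocyte and macrophage markers had reads for 39 of the 40 genes listed and summed to 6664 to 6764 CPM (estimated reads scaled to a common library size) with ML-60218 and CHX, against 6645 to 7252 CPM with CHX. Markers of T, NK and B cells summed to 13.6 to 14.9 CPM, against 14.4 to 15.6 CPM. Mitochondrial RNAs took 4.29% ± 0.0975 of reads with ML-60218 and CHX and 4.09% ± 0.356 with CHX (SD, n = 3 each, exact two-sided permutation p = 0.4, where 0.1 is the smallest p possible). The labels do not say that replicates came from separate cultures, so p-values reflect variation among these libraries, some of which may be purely technical.

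With ML-60218 in CHX, 1341 of 15327 genes tested were called higher and 1188 were called lower than with CHX (edgeR quasi-likelihood test, Benjamini-Hochberg adjusted p under 0.05). These were 8.75% and 7.75% of all genes, 16.5% in either direction. Most changes were small. The called genes had a median absolute log2 fold change of 0.23, 75 of them were over 2-fold higher and 26 over 2-fold lower. A log2 fold change past 0.58 was called for 213 genes upward (1.39%) and 106 downward (0.692%). The larger changes were thus mostly increases. Over all genes tested the median was -0.0048 on the log2 scale. When gene lengths estimated per library were used as an offset, 824 genes were called higher and 645 lower. The count of lower genes also fell to 782 without ML-60218 and CHX replicate 2, to 688 without its replicate 3 and to 697 without CHX replicate 1. Bulk RNA does not tell fewer cells of a kind from less RNA per cell.

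Immediate early transcription factors rose broadly. Of the 9 EGR, NAB and NR4A genes tested, 8 rose with ML-60218 in CHX and none fell, and their median log2 fold change was 0.75. Of 16 FOS, JUN and related AP-1 genes, 10 rose and 2 fell (median 0.40). Of 32 other early genes, 18 rose and 1 fell (median 0.28). In this comparison 8.75% of all genes tested were called higher and 7.75% lower, shares that stand beside each list count with CHX below. CHX by itself raised 8 of the 9 EGR, NAB and NR4A genes and lowered 1 relative to DMSO. It raised 8 and lowered 6 of the 16 AP-1 genes, and raised 24 and lowered 5 of the 32 other early genes. For CHX by itself, 33.5% of all genes were called higher and 32.5% lower.

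EGR3, a zinc finger factor induced by growth and antigen signals (chr8:22687659-22693302, GRCh38), stood at 18.9, 20.9 and 22.4 CPM with ML-60218 and CHX. With CHX it stood at 2.38, 2.30 and 1.75 CPM. The groups did not overlap, which held for 34.6% of all genes tested, and the log2 fold change was 3.27 ± 0.17 (SE, adjusted p = 4.74e-07). Without CHX, EGR3 had 2.53, 4.04 and 2.73 CPM with ML-60218, against 0.719, 0.789 and 0.599 CPM with DMSO (log2 fold change 2.13 ± 0.20, adjusted p = 3.46e-05). The response with CHX exceeded that without it by 1.14 on the log2 scale (adjusted p = 0.0278). That difference lost its call in 7 of 12 runs that left out 1 library, with an adjusted p up to 0.0944, and with the length offset (adjusted p = 0.226).

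FOSB, a partner of JUN proteins in the AP-1 dimer (chr19:45467995-45475179), gave 12.7, 19.0 and 17.3 CPM with ML-60218 and CHX, against 1.67, 2.17 and 1.64 CPM with CHX. This was a log2 fold change of 3.16 ± 0.19 (adjusted p = 1.53e-06). Without CHX it gave 1.5, 1.19 and 1.17 CPM with ML-60218, against 0.547, 0.868 and 0.970 CPM with DMSO, a difference that missed the threshold (0.69 ± 0.23, adjusted p = 0.0675). The 2 responses differed by 2.47 (adjusted p = 0.00105), and FOSB had the largest difference in the AP-1 list.

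NR4A3, an orphan nuclear receptor of the early class (chr9:99821855-99866891), had 19.8, 24.4 and 23.5 CPM with ML-60218 and CHX, against 5.04, 4.49 and 5.58 CPM with CHX. Its log2 fold change was 2.16 ± 0.17 (adjusted p = 8.7e-06), against 0.74 ± 0.29 without CHX (adjusted p = 0.109). The responses differed by 1.42 (adjusted p = 0.0287), and the call was lost in 6 of 12 runs without 1 library. Its relative NR4A1 had 12.4, 16.3 and 13.2 CPM, against 3.57, 4.12 and 4.80 CPM with CHX. NR4A1 rose in both settings, by 1.75 with CHX and 1.32 without it, and the difference was not called (adjusted p = 0.311). NR4A2 rose with CHX (0.75, adjusted p = 0.000496), had 0.22 without it (adjusted p = 0.276), and its difference was not called either (adjusted p = 0.0746).

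EGR1, whose promoter is printed above, had 31.1, 30.6 and 30.0 CPM with ML-60218 and CHX, against 19.1, 20.3 and 18.5 CPM with CHX. The 2 groups were tight and well apart, with a log2 fold change of 0.66 ± 0.07 (adjusted p = 5.98e-05). EGR1 stood at only 7.12 CPM on average with ML-60218 alone and 5.57 CPM with DMSO, where its log2 fold change was 0.35. EGR4 rose as well (2.08) but stood at only 0.999 CPM on average, against 0.235 CPM with CHX, and EGR2 was the member of its list that did not pass the test (0.10, adjusted p = 0.831). The corepressors NAB1 and NAB2 bind EGR proteins and limit them. NAB2 had 48.9, 54.2 and 52.0 CPM with ML-60218 and CHX, against 31.9, 31.9 and 32.6 CPM with CHX. Its log2 fold change of 0.69 was smaller than the 1.85 seen without CHX, by 1.16 (a difference of -1.16, adjusted p = 0.000755). EGR3 and NAB2 therefore moved in the same direction in each setting, with opposite signs of the difference.

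Among AP-1 genes, ATF3, a stress-induced repressor, had 19.0, 24.2 and 23.6 CPM with ML-60218 and CHX, against 8.93, 10.6 and 9.67 CPM with CHX (log2 fold change 1.19 ± 0.10, adjusted p = 1.37e-05). JUND had 50.9, 65.0 and 58.4 CPM, against 29.8, 31.3 and 29 CPM with CHX (0.95 ± 0.07, adjusted p = 8.7e-06). In both genes every library with ML-60218 was above every library without it. FOS, JUN and JUNB rose by 0.42, 0.37 and 0.31, much as they did without CHX, where the log2 fold changes were 0.48, 0.44 and 0.33. FOSL2 changed sides. It had 179, 189 and 184 CPM with ML-60218 and CHX, against 158, 125 and 156 CPM with CHX (0.33, adjusted p = 0.00633), but fell without CHX (-0.35, adjusted p = 0.00403). The difference of 0.68 was called (adjusted p = 0.00222). MAFF, a small MAF protein, rose by 0.80. The members that fell were MAF (-0.22) and BATF (-0.32), and each lost its call in 4 of the 6 runs that left out 1 library, BATF also with the length offset (adjusted p = 0.0943).

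**Figure D1:**
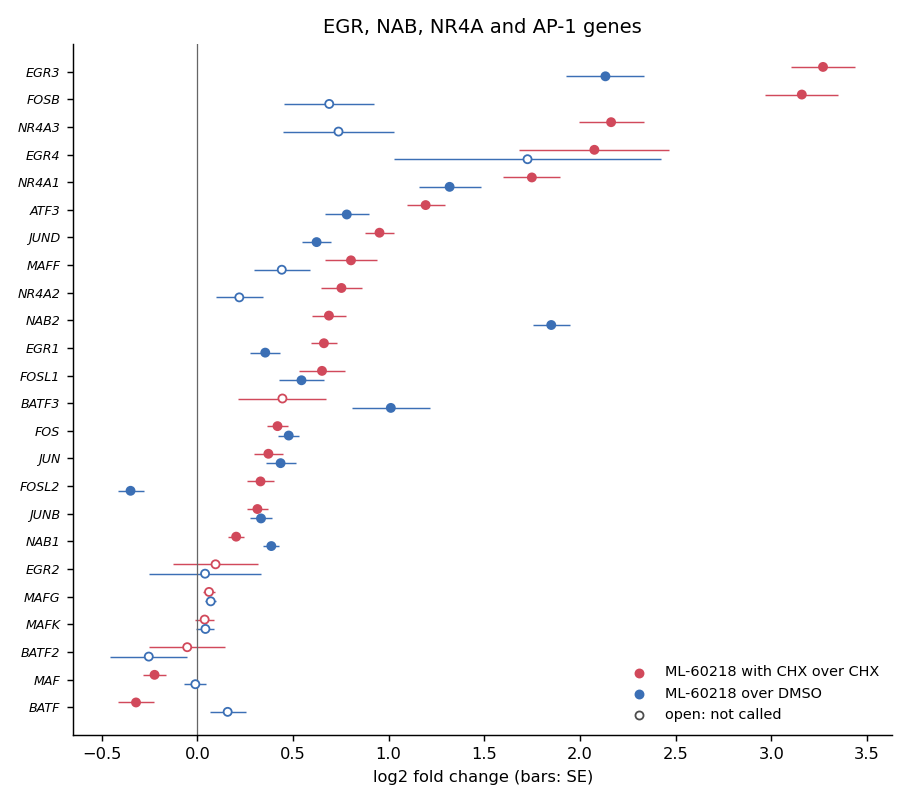
Log2 fold changes (x axis, bars SE) of 24 of the EGR, NAB, NR4A and AP-1 genes tested, with CHX (red, ML-60218 with CHX over CHX) and without it (blue, ML-60218 over DMSO), 3 libraries a group. EGR3 (3.27) and FOSB (3.16) lead with CHX, and most filled points lie right of 0.

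In the list of other early genes, IER2 had 67.1, 71.6 and 69.6 CPM with ML-60218 and CHX, against 51.8, 52.1 and 51.2 CPM with CHX (log2 fold change 0.42, adjusted p = 8.9e-06). ZFP36, which encodes a protein that destabilises AU-rich mRNAs, had 98.2, 106 and 105 CPM, against 74.6, 69.8 and 74.7 CPM (0.50, adjusted p = 1.72e-05). The MAPK phosphatases moved less as a group. Among 18 DUSP and feedback genes 4 were higher (7 with DESeq2) and none lower, against 8.75% and 7.75% of all genes. DUSP2 rose to 2.26 CPM on average, against 1.19 CPM with CHX (0.92, adjusted p = 0.00191), and DUSP5 rose by 0.57. Without CHX, DUSP2 had a log2 fold change of -0.36 (adjusted p = 0.152), and the difference of 1.28 was called (adjusted p = 0.00603).

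Genes of cholesterol synthesis and uptake also rose broadly. Of the 35 sterol genes tested, 22 rose with ML-60218 in CHX and 1 fell, and the median log2 fold change was 0.30, against -0.0048 for all genes. Without CHX, 17 of the 35 rose and 3 fell with a median of 0.17, where 8.48% and 7.05% of all genes were called in these directions. With CHX 8.75% and 7.75% of all genes were called higher and lower. The difference between the responses was called higher for 11 of the 35 and lower for 2, against 2.86% and 3.70% of all genes. CHX by itself raised 9 of the 35 and lowered 16 relative to DMSO (median -0.11), against 33.5% and 32.5% of all genes. The controls of the 2 settings thus differed, and the cause of the difference in response was not tested.

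INSIG1, the retention protein of the SREBP pathway and itself an SREBP target (chr7:155297776-155310235), had 121, 158 and 138 CPM with ML-60218 and CHX, against 54.2, 53.1 and 54.1 CPM with CHX. The log2 fold change was 1.37 ± 0.08 (adjusted p = 6.65e-07). Without CHX it had 167, 174 and 157 CPM with ML-60218, against 119.8, 125 and 118 CPM with DMSO (0.45 ± 0.07, adjusted p = 0.0011). With CHX by itself INSIG1 fell by 1.17 on the log2 scale relative to DMSO, so the larger fold change under CHX stands against a lower control. The difference of 0.91 between the responses was called (adjusted p = 0.000755).

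HMGCS1, which makes the HMG-CoA that enters the pathway (chr5:43289395-43313512), had no such drop in its own control with CHX. It had 423, 497 and 487 CPM with ML-60218 and CHX, against 225, 224 and 220.4 CPM with CHX. In the absence of CHX it had 225, 237 and 219 CPM with ML-60218, against 176, 185 and 166 CPM with DMSO. The log2 fold change was 1.07 ± 0.06 with CHX and 0.37 ± 0.06 without it, and the difference of 0.70 was called (adjusted p = 0.000755). Its libraries with both agents were the highest of all 12 and shared no value with any other group.

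SQLE, the squalene epoxidase, had 327, 379 and 369 CPM with ML-60218 and CHX, against 178, 177 and 179.7 CPM with CHX (1.01 ± 0.05). MSMO1, a sterol demethylase, had 91.7, 126 and 107 CPM, against 42.8, 46.5 and 42.4 CPM with CHX (1.30 ± 0.09). In both genes the groups were apart, and the difference from the response without CHX was called, by 0.64 for SQLE and 0.91 for MSMO1. IDI1 rose by 0.68 with CHX and had a log2 fold change of -0.02 without it (adjusted p = 0.942, difference 0.70 with adjusted p = 0.00819). STARD4, a sterol carrier, rose by 0.69 and 0.25, a difference of 0.44.

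Not every member followed. CYP51A1 rose by 0.68 with CHX and 0.50 without it, and the difference was not called (adjusted p = 0.148). SREBF2, the gene of SREBP-2, rose to 318, 327 and 319.5 CPM, against 282, 280.2 and 276 CPM with CHX, a log2 fold change of only 0.20 (adjusted p = 0.000443). SREBF1 had a log2 fold change of -0.01 (adjusted p = 0.895). The SREBP escort SCAP fell slightly (-0.14, adjusted p = 0.00945), a call lost with the length offset (adjusted p = 0.207).

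**Figure D2:**
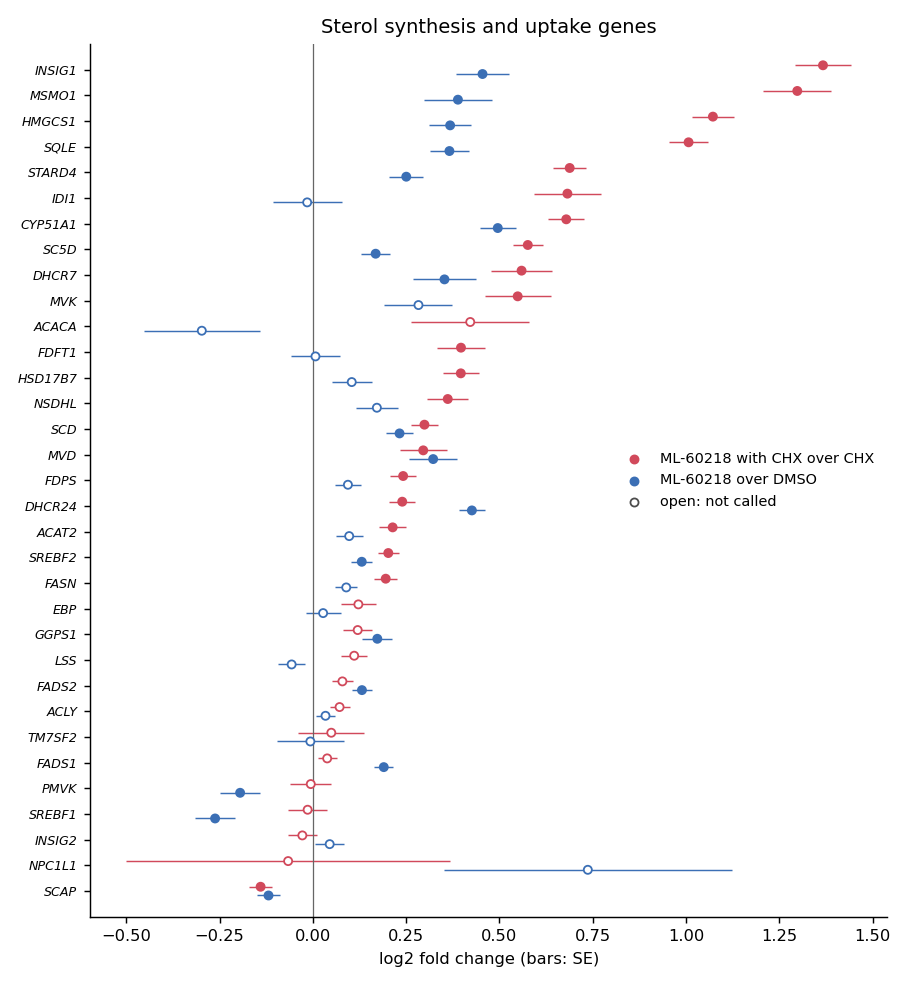
Log2 fold changes (x axis, bars SE) of 33 of the 35 sterol genes tested, with CHX (red) and without it (blue). The red points of INSIG1 (1.37), MSMO1 (1.30), HMGCS1 (1.07) and SQLE (1.01) lie well right of their blue points, while SREBF1 lies near 0 with CHX.

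Genes of fatty acid use rose too, but here the responses under CHX were no larger. Of 29 PPAR targets and genes of fatty acid oxidation, 11 rose with ML-60218 in CHX and none fell (median 0.10). Without CHX 15 rose and 1 fell (median 0.30). The difference was called lower for 4 and higher for none, against 3.70% and 2.86% of all genes. Shares of all genes higher and lower were 8.75% and 7.75% with CHX, and 8.48% and 7.05% without it. PDK4, the kinase that switches off pyruvate dehydrogenase (chr7:95583499-95596491), had 113, 106 and 116 CPM with ML-60218 and CHX, against 27.0, 25.3 and 27.0 CPM with CHX. Its log2 fold change was 2.08 ± 0.07 (adjusted p = 1.03e-08), the smallest adjusted p among the genes of all 45 lists. Without CHX it had 114, 126 and 104 CPM with ML-60218, against 16.6, 17.8 and 15.6 CPM with DMSO (2.78 ± 0.07). The libraries with the drug overlapped between these settings and the libraries without it did not, and the difference was -0.70 (adjusted p = 0.00209).

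PLIN2, which coats lipid droplets (chr9:19108375-19149290), behaved likewise. It had 312, 319 and 326 CPM with ML-60218 and CHX, against 148, 141 and 145 CPM with CHX (1.14 ± 0.11, adjusted p = 4.68e-05). Cells without CHX had 308, 415 and 270.4 CPM with ML-60218, against 56.8, 59.1 and 52.8 CPM with DMSO (2.56 ± 0.12), and the difference was -1.42 (adjusted p = 0.000825). CPT1A, the carnitine transferase that admits fatty acids to mitochondria, rose by 0.50 with CHX and 0.60 without it. ACSL1, an acyl-CoA synthetase, rose by 0.46 and 0.55. Neither difference was called, with adjusted p of 0.30 for CPT1A and 0.531 for ACSL1.

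Several genes of lipid and glucose sensing fell in both settings. ABCG1, a cholesterol exporter and LXR target (chr21:42199689-42297244), had 11.6, 10.5 and 11.9 CPM with ML-60218 and CHX, against 19.6, 16 and 19.3 CPM with CHX (-0.69 ± 0.09, adjusted p = 0.000395). Without CHX the log2 fold change was -0.71. MYLIP, an LXR target that encodes a ubiquitin ligase, fell by 0.32 with CHX and by 0.23 without it. Of the 12 LXR targets tested, 5 rose and 3 fell without CHX (median 0.11), against 8.48% and 7.05% of all genes. With ML-60218 in CHX 2 rose (1 with the length offset) and 3 fell (median -0.007), against 8.75% and 7.75% of all genes. Those that rose with CHX were SCD (0.30) and LPCAT3 (0.15). The third to fall was NR1H3, the gene of LXR alpha, with 9.73, 9.38 and 9.52 CPM, against 11.6, 10.2 and 12.3 CPM with CHX (-0.26, adjusted p = 0.0483). NR1H3 had 0.20 without CHX (adjusted p = 0.106, difference -0.45 with adjusted p = 0.0308), and its fall lost the call in 5 of 6 runs that left out 1 library, with the length offset, DESeq2 and a replicate block. Among the arrestin family, TXNIP had 5089, 4537 and 4918 CPM, against 6460.0, 6256 and 6394 CPM with CHX, and fell by 0.39 with CHX and by 0.41 without it. ARRDC4 had 104, 84.9 and 107 CPM, against 158, 166 and 162 CPM with CHX (-0.72, and -0.47 without CHX). ARRDC3 went the other way, with 725, 901 and 791 CPM, against 361, 356 and 372 CPM with CHX (1.15 ± 0.13, and 1.29 without CHX). For ABCG1, MYLIP, TXNIP, ARRDC4 and ARRDC3 the difference between settings was not called. FBXO32, a ubiquitin ligase gene of the same list, had -0.33 with CHX (adjusted p = 0.0471) and 0.22 without it (adjusted p = 0.199), and each of the 6 runs without 1 library lost its fall, as did the length offset and the replicate block.

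**Figure D3:**
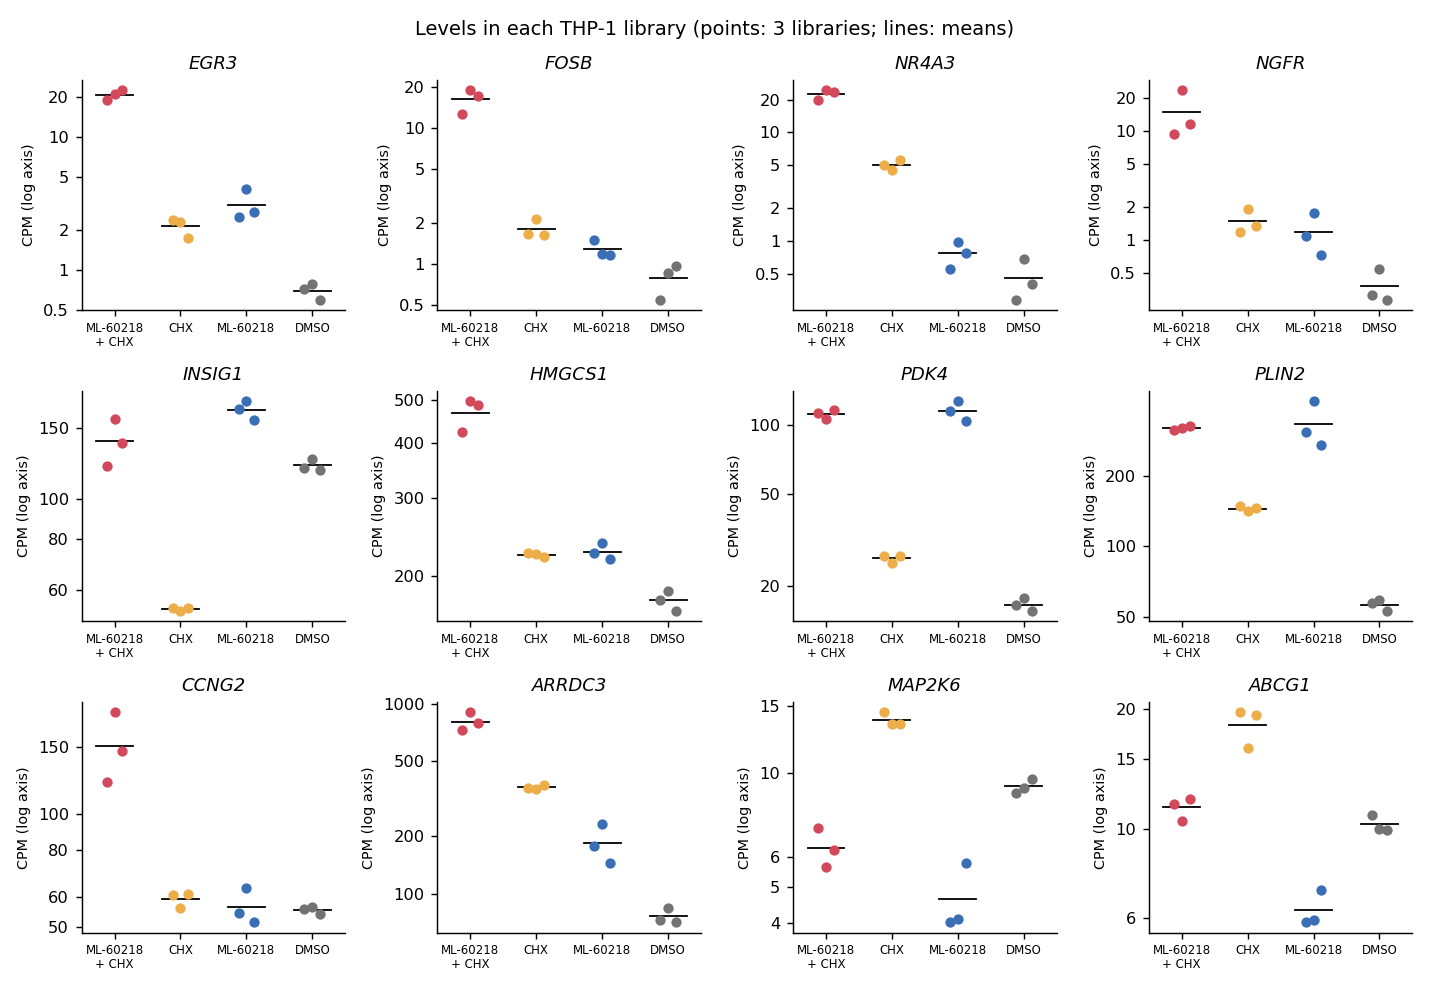
Level in CPM (y axis, log scale) of 12 genes in each of the 12 THP-1 libraries, with points for libraries and lines for group means. EGR3, FOSB and NR4A3 are highest in the libraries with both agents, PDK4 reaches 112 CPM with both agents and 115 CPM with ML-60218 alone, and MAP2K6 and ABCG1 are lower wherever ML-60218 was given.

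NF-kB pathway genes, whose products include the inhibitors that feed back on the pathway, rose by small amounts. Of 27 tested, 15 rose with ML-60218 in CHX and 1 fell (median 0.18), against 8.75% and 7.75% of all genes. CHX by itself raised 24 of the 27 and lowered 1 relative to DMSO, against 33.5% and 32.5% of all genes. BCL3, an atypical IkB protein, had 46.5, 47.6 and 48.9 CPM with both agents, against 31.6, 29.7 and 33.9 CPM with CHX (0.59, adjusted p = 0.000136). RELB, a subunit of the noncanonical pathway, had 54.9, 56.0 and 58.8 CPM, against 41.1, 39.9 and 42.2 CPM with CHX (0.46, adjusted p = 0.000288). CHX by itself had raised RELB to 41.1 CPM on average, against 4.68 CPM with DMSO, and BCL3 to 31.8 CPM, against 3.64 CPM. Without CHX the log2 fold changes were larger, 1.17 for RELB and 1.20 for BCL3, and the differences of -0.71 and -0.62 were called. NFKBIA, the classical inhibitor, rose by 0.32 with CHX and 0.50 without it. CD83, a surface protein of activated antigen-presenting cells, is not a member of this list. It had 39.5, 40.7 and 46.7 CPM, against 16.8, 16.7 and 18.4 CPM with CHX (1.29 ± 0.07, adjusted p = 4.74e-07, and 1.06 without CHX).

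Of 24 cytokine and chemokine genes, 5 rose and 1 fell (median -0.005), against 8.75% and 7.75% of all genes. With the length offset 2 rose. OSM, the cytokine oncostatin M, had 4.22, 5.53 and 3.90 CPM with both agents, against 1.72, 1.51 and 1.69 CPM with CHX (1.47 ± 0.24, adjusted p = 0.00126). CCL5 had 60.9, 64.5 and 63.9 CPM, against 40.8, 42.8 and 41.8 CPM with CHX (0.59, adjusted p = 2.95e-05). In both genes the libraries of the groups were apart. Interferon-induced and RNA-sensing genes leaned the other way. Among 38 tested, 2 were higher and 7 lower (median -0.12), against the same 8.75% and 7.75% of all genes.

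ATF4 targets, which serve amino acid supply in the integrated stress response, set the 2 settings apart. Of 28 tested, 7 rose with ML-60218 in CHX and 1 fell (median 0.03), while 18 rose and none fell without CHX (median 0.37). The difference was called lower for 10 of them and higher for none, against 3.70% and 2.86% of all genes. Shares of all genes higher and lower were 8.75% and 7.75% with CHX, and 8.48% and 7.05% without it. CHX by itself lowered 13 of the 28 and raised 7 relative to DMSO (median -0.27), where 32.5% and 33.5% of all genes were called. The controls of the 2 settings thus differed, and the cause of the difference in response was not tested. SLC7A11, the cystine transporter, had 3.86, 3.02 and 3.38 CPM with both agents, against 3.03, 2.38 and 3.69 CPM with CHX (0.18, adjusted p = 0.56). Without CHX it had 21.2, 26.8 and 19.1 CPM with ML-60218, against 8.43, 9.57 and 10.4 CPM with DMSO (1.24, adjusted p = 0.000191). Its difference of -1.06 lost the call with the length offset (adjusted p = 0.052) and without CHX replicate 3 (adjusted p = 0.0544). SLC7A5, a leucine transporter, rose in both settings, by 0.44 with CHX and 0.82 without it, a difference of -0.38 (adjusted p = 0.0204) that 3 of 12 runs without 1 library lost. DDIT3, the stress factor CHOP, had 24.3, 34.2 and 26.5 CPM, against 16.7, 17.1 and 16.8 CPM with CHX (0.75, adjusted p = 0.00404), so not every member lacked a response. ATF4 mRNA itself had 9.91 CPM on average with both agents and 10.2 CPM with CHX.

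NRF2 targets of the antioxidant response gave a like picture. Of 30 tested, 4 rose and 4 fell with CHX (median 0.04; 2 fell with DESeq2 and 1 with the length offset), and 13 rose and 1 fell without it (median 0.10). The difference was called lower for 9 and higher for none, against 3.70% and 2.86% of all genes. Among all genes 8.75% were higher and 7.75% lower with CHX, and 8.48% and 7.05% without it. CHX by itself lowered 21 of these 30 and raised 2 relative to DMSO (median -0.41). SRXN1, sulfiredoxin, had 9.42, 10.2 and 9.49 CPM, against 8.97, 9.27 and 10.1 CPM with CHX (0.04, adjusted p = 0.756). Without CHX it rose by 0.49 (adjusted p = 0.000215), and the difference of -0.45 was called (adjusted p = 0.0115). Unfolded protein response genes went the other way. Of 30, 5 rose and 1 fell with CHX (3 rose with the length offset), and 1 rose and 10 fell without it. The difference was called higher for 7 and lower for none, against 2.86% and 3.70% of all genes. Here too CHX by itself lowered 20 of the 30 and raised 5 (median -0.47). HSPA5, the chaperone BiP, had 395, 387 and 385 CPM with both agents, against 360.1, 360.3 and 369 CPM with CHX (0.10, adjusted p = 0.0774). This was called with DESeq2 (adjusted p = 0.0222), with a mean of 5 CPM required (adjusted p = 0.0451) and with the 6 libraries compared alone (adjusted p = 0.0287). Without CHX it fell to 399, 404 and 428 CPM with ML-60218, against 554, 566 and 515 CPM with DMSO (-0.41), a difference of 0.51 (adjusted p = 0.000323).

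The other stress and growth lists moved in part. Over all 45 lists 225 different genes were called higher and 71 lower, where a gene in more than 1 list counts once. Of 29 heat shock and chaperone genes 12 rose and 1 fell (median 0.08), and 6 rose with the length offset. HSPA4L had 96.2, 142 and 114 CPM, against 51.1, 52.3 and 50.3 CPM with CHX (1.20 ± 0.10), larger than the 0.35 seen without CHX by 0.85 (adjusted p = 0.00626). Of 35 lysosome and autophagy genes 11 rose and 1 fell (median 0.06). They included the autophagy receptor SQSTM1 (0.74 with CHX, 0.85 without) and FNIP2, a partner of folliculin (0.55 with CHX, 0.13 without, difference 0.42 with adjusted p = 0.00132, or 0.052 with the length offset). Of 45 ribosome biogenesis genes 13 rose and none fell (median 0.07), and 6 rose with the length offset. RRP12 led them with 48.1, 47.5 and 49.6 CPM, against 32.5, 30.4 and 33.0 CPM with CHX (0.60). Nuclear genes of oxidative phosphorylation, with 2 of 41 higher and none lower, and cytosolic tRNA synthetases, with none of 20 higher and 1 lower, had counts near or below the 8.75% and 7.75% of all genes.

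**Figure D4:**
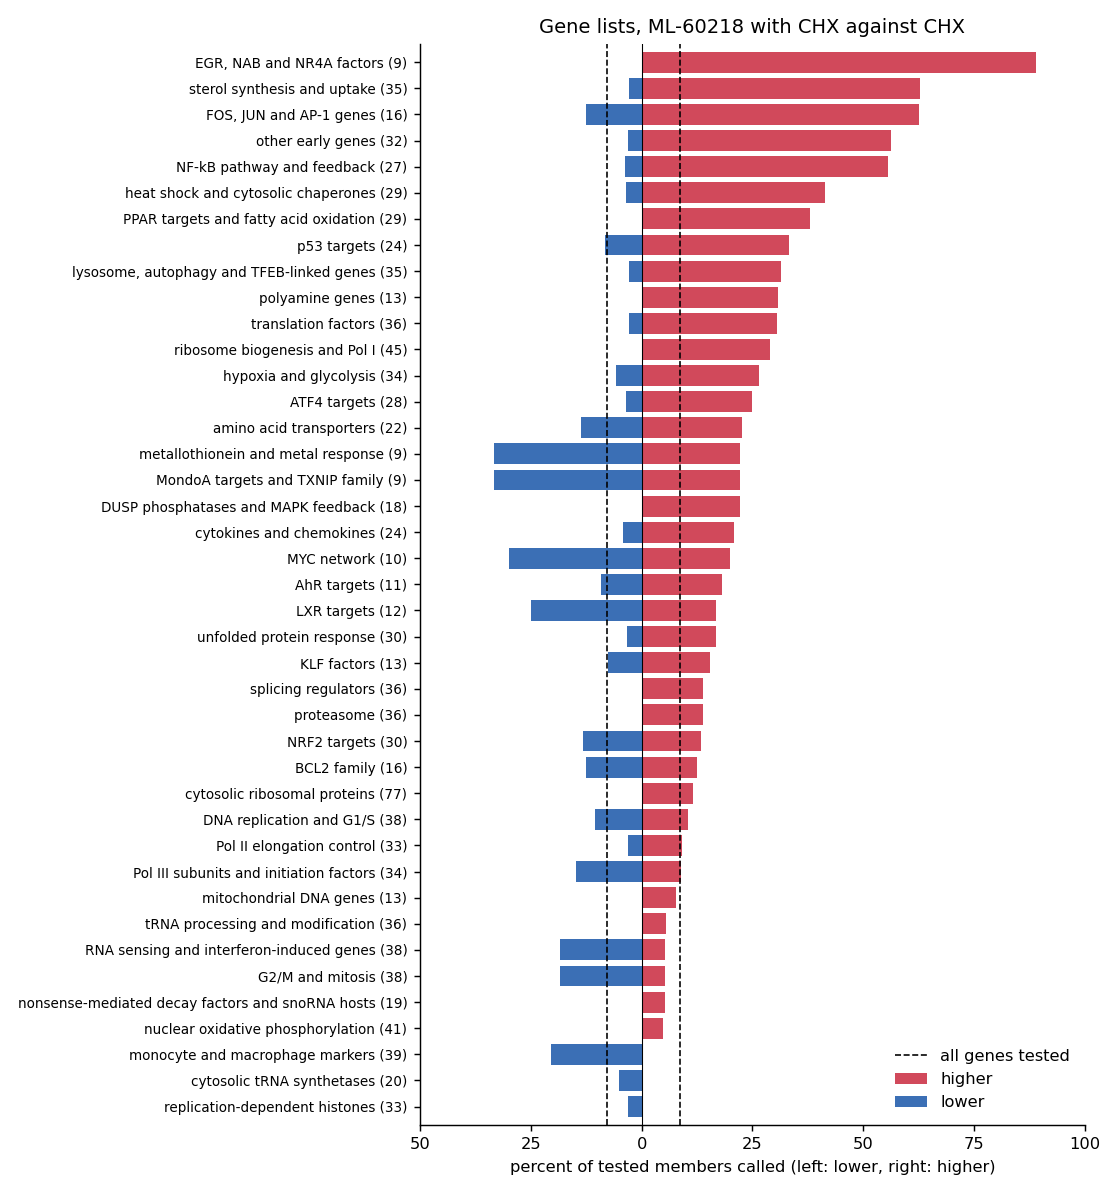
Percent of tested members called higher (red, right) and lower (blue, left) with ML-60218 and CHX against CHX, for each list with at least 9 genes tested (number in brackets). Dashed lines mark the 8.75% and 7.75% of all 15327 genes, and the EGR, NAB and NR4A list (88.9% in either direction) and the sterol list (65.7%) lie far to the right.

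Genes of the RNA polymerase III machinery changed in both directions, and none of the 3 genes targeted in the HEK293T libraries was called. POLR3GL, which encodes the paralogue of the subunit POLR3G, had 60.6 CPM on average with both agents, against 60.8, 65.2 and 59.9 CPM with CHX, and the groups overlapped (-0.03, adjusted p = 0.609). MAF1, the repressor of RNA polymerase III, had 43.6, 44.0 and 42.2 CPM, against 45.8, 45.3 and 44.9 CPM with CHX (-0.07, adjusted p = 0.194). POLR3G had 0.937 CPM on average, against 0.797 CPM with CHX, and ranged from 0.139 to 1.36 CPM over these libraries, so that no change of it could be told at this level (adjusted p = 0.911). Of 34 subunits and initiation factors 3 rose and 5 fell (23.5% called, against 16.5% of all genes), and the median log2 fold change was -0.001. With the length offset 1 rose and 3 fell, and 3 also fell with DESeq2 and with a replicate block. The largest rise was that of POLR2H (0.67, adjusted p = 0.000579), which kept its call in all 6 runs that left out 1 library. Its difference from the response without CHX was also called (0.65, adjusted p = 0.0149). Those that fell included BRF1 (-0.16) and SNAPC4 (-1.03), which encodes a factor of snRNA gene promoters. The call of SNAPC4 was lost in 4 of 6 runs that left out 1 library, with an adjusted p up to 0.0631, and that of BRF1 without ML-60218 and CHX replicate 3 (adjusted p = 0.0592) and with the length offset (adjusted p = 0.491).

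Outside these lists, NGFR, the low-affinity neurotrophin receptor, had the largest rise among the genes ranked. The ranking took called genes of at least 5 CPM with a standard symbol and no overlap between the groups. It had 9.30, 23.6 and 11.6 CPM with both agents, against 1.19, 1.93 and 1.36 CPM with CHX (3.31 ± 0.38, adjusted p = 0.000119). Replicate 2 of the libraries with both agents was the highest for NGFR and also for RNF150 (12.8, 26.6 and 16.9 CPM, against 3.71, 4.18 and 3.83 CPM with CHX), CAPN5 (12.9, 25.6 and 14.8 CPM, against 4.27, 5.48 and 4.58 CPM) and CCNG2. The log2 fold changes were 2.26 for RNF150 and 1.89 for CAPN5, and their calls were kept in each run that left out 1 library of the comparison.

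Of 24 p53 targets tested, 8 rose and 2 fell with ML-60218 in CHX (median 0.08), against 8.75% and 7.75% of all genes. CCNG2, an atypical cyclin induced when growth signals are low, had the highest fold change of that list. It had 121, 185 and 146 CPM with both agents, against 60.9, 56.3 and 61.3 CPM with CHX (1.34 ± 0.12, adjusted p = 2.53e-05). In the absence of CHX it had 54.5, 63.6 and 51.6 CPM with ML-60218, against 55.9, 56.6 and 54.2 CPM with DMSO (0.02, adjusted p = 0.931). The response was thus seen with CHX, and the difference of 1.32 was called (adjusted p = 0.00158). THBS1, the matrix protein thrombospondin, had 70.3, 87.8 and 81.5 CPM, against 31.6, 20.6 and 32.8 CPM with CHX, and rose by 1.5 with CHX and 1.56 without it. The monocarboxylate transporter genes SLC16A9 and SLC16A6 each rose by 1.68 with CHX.

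MAP2K6, a kinase that activates p38 (chr17:69414698-69553861), fell to 7.13, 5.63 and 6.26 CPM with both agents, against 14.5, 13.5 and 13.4 CPM with CHX (-1.12 ± 0.12, adjusted p = 9.27e-05). Without CHX it fell to 4.03, 4.09 and 5.76 CPM with ML-60218, against 8.86, 9.15 and 9.62 CPM with DMSO (-0.99). No library overlapped in either setting, but with the length offset the call with CHX was lost (-0.69, adjusted p = 0.123). SETD1A, a histone methyltransferase gene, had 5.51, 4.68 and 2.58 CPM, against 9.63, 7.99 and 12.1 CPM with CHX (-1.21, adjusted p = 0.0106), also lost with that offset (adjusted p = 0.112). Other falls among the largest were GPR82 (-0.92), KCNJ2 (-0.75), GIMAP4 (-0.75) and the haematopoietic factor NFE2 (-0.70).

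Of 39 monocyte and macrophage markers, 8 fell and none rose with ML-60218 in CHX (median -0.05). Without CHX 7 rose and 4 fell (median 0.06). The difference was called lower for 7 and higher for none, against 3.70% and 2.86% of all genes. Among all genes 8.75% were higher and 7.75% lower with CHX, and 8.48% and 7.05% without it. With DESeq2 or a replicate block 1 marker rose with CHX. The chemokine receptor CCR2 had 122, 79.3 and 107 CPM with both agents, against 191, 127 and 179 CPM with CHX (-0.69, adjusted p = 0.00806). Its replicate 2 was the lowest in both groups. CX3CR1 had 105, 80.9 and 93.8 CPM, against 136, 118 and 135 CPM with CHX (-0.47), and CD33 had 86.2, 82.0 and 81.6 CPM, against 96.4, 98.5 and 96.0 CPM (-0.22). SPI1, the myeloid master factor PU.1, had 158, 159 and 159 CPM, against 167, 151 and 162 CPM with CHX (-0.01, adjusted p = 0.884). Without CHX it rose by 0.47 (adjusted p = 2.23e-05), and the difference of -0.48 was called (adjusted p = 0.00104). For CCR2 without CHX the log2 fold change was -0.04, and the difference between settings was not called (adjusted p = 0.0897).

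Across all genes, the responses with and without CHX were set side by side, since these comparisons share no library. ML-60218 without CHX raised 1300 genes and lowered 1080 (15.5% in either direction). Of these lists 478 genes (3.12% of all tested) were called higher in both settings, 35.6% of those higher with CHX and 36.8% of those higher without it. Of all genes tested, 8.48% were called higher without CHX and 8.75% with it. Another 388 (2.53% of all tested) were called lower in both, 32.7% of those lower with CHX and 35.9% of those lower without it, where 7.05% of all genes were called lower without CHX and 7.75% with it. Of the 1341 genes higher with CHX, 1091 (81.4%) had a positive fold change without it at any p, and 21 were called lower without it. Of the 1188 lower with CHX, 931 (78.4%) had a negative fold change without it, and 53 were called higher.

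The difference between the responses was itself called for 1006 genes (6.56%), 439 higher and 567 lower. Among the genes higher with CHX, the difference was called in the same direction for 282 and in the opposite one for 31, and was not called for 1028. Among those higher without CHX, it was called lower for 388 and higher for 35, and was not called for 877. Genes called higher in both with the smallest p included EGR3, PDK4, CD83, PLIN2 and SQSTM1, together with TREM1, an amplifier of myeloid inflammation (1.10 with CHX, 1.30 without), HIVEP1 (1.12 and 1.45) and MYADM (1.13 and 0.97). Those lower in both included MAP2K6, KCNJ2, ABCG1 and METTL7A (-0.64 and -0.65). CHX by itself changed far more genes than the drug did, with 66.0% of genes called against DMSO.

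Several genes responded to ML-60218 without CHX and not, or the other way, with it. RAB7B, a small GTPase of the endosome, had 32.8, 31.2 and 30.9 CPM with both agents, against 33.1, 26.6 and 33.8 CPM with CHX (0.02, adjusted p = 0.905). Cells without CHX had 118, 140.3 and 119 CPM with ML-60218, against 53.7, 54.2 and 52.6 CPM with DMSO (1.23 ± 0.08), and the difference was -1.21 (adjusted p = 0.000323). ZNF366, a factor of dendritic cells, had 10.9, 8.42 and 9.35 CPM with both agents, against 10.4, 7.59 and 10.3 CPM with CHX. Without CHX it had 34.5, 42.8 and 33.0 CPM, against 12.5, 13 and 14.2 CPM with DMSO (1.48 ± 0.13, difference -1.45). The drug's effect on these genes was thus not detected under CHX.

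CLIP2, which encodes a microtubule-linked protein (chr7:74289475-74405943), had 12.2, 12.0 and 12.2 CPM with both agents, against 15.2, 13 and 15.4 CPM with CHX (-0.26, adjusted p = 0.0351). It had 42.0, 49.4 and 42.2 CPM with ML-60218 alone, against 19.9, 21.3 and 20.2 CPM with DMSO (1.12 ± 0.07), and the difference of -1.38 had an adjusted p of 7.51e-05. The fall under CHX lost its call in 5 of 6 runs without 1 library (adjusted p up to 0.142), with the length offset and with a replicate block. SLAMF8, a myeloid surface receptor, likewise had -0.51 with CHX, a call lost in 2 of 6 such runs, and 0.86 without it. For CCL2 the values were -0.53 (adjusted p = 0.0693) and 0.76, and without CHX replicate 2 its fall was called (-0.74, adjusted p = 0.00352), as it was with no filter on low counts (adjusted p = 0.0475) and with a mean of 5 CPM required (adjusted p = 0.0491). HMOX1, the haem-degrading enzyme, rose in both settings but less with CHX. It had 6.56, 7.13 and 5.47 CPM, against 4.12, 3.39 and 3.53 CPM with CHX (0.79), and 14.3, 18.1 and 15.4 CPM with ML-60218 alone, against 3.88, 4.21 and 4.88 CPM with DMSO (1.88, difference -1.09).

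**Figure D5:**
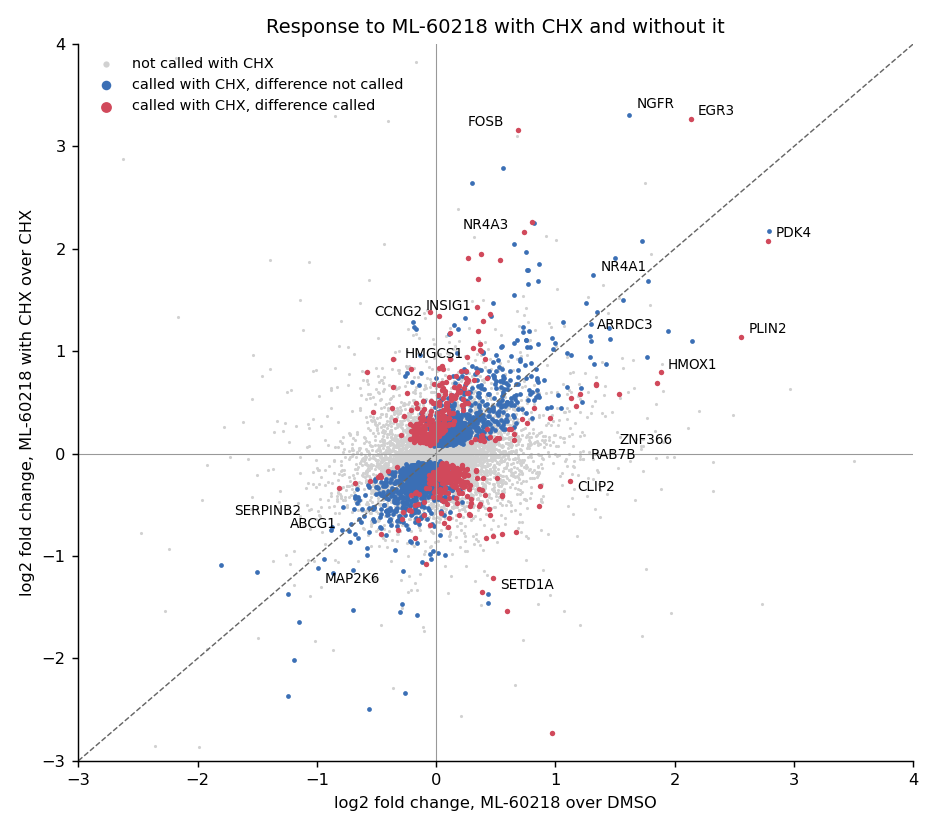
Log2 fold change of each gene with CHX (y axis, ML-60218 with CHX over CHX) against that without it (x axis, ML-60218 over DMSO), coloured by whether the gene was called with CHX and whether the difference was called. FOSB, NR4A3, INSIG1 and CCNG2 lie above the dashed line of equal response, PLIN2 and HMOX1 below it, and RAB7B and ZNF366 near 0 on the y axis; 49 genes outside the axes and 36 with unstable read assignment are not drawn.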

How the data were processed

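The deposited table gave estimated counts and TPM values per transcript for each library, which the authors made with Salmon, per the file headers and the submitters' processing notes. Those notes also name bcl2fastq 2.20, Trim Galore, DESeq2 and the hg38 build. Other versions were not given in the sources used here, nor was the annotation. The deposited TPM values were not tested. Of 194142 transcripts, 158359 (81.6%) matched GENCODE 29, and 9.34% to 9.44% of reads in the 6 libraries compared lay on unmatched ones, which were left out. The counts of matched transcripts were added up by gene, then rounded to whole numbers.

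The 12 THP-1 libraries were fitted together by the quasi-likelihood F-test of edgeR 4.0.16 (R 4.3.3), after TMM scaling and its default filterByExpr step, without a block. The contrasts were ML-60218 with CHX against CHX, ML-60218 against DMSO, CHX against DMSO, and the difference of the ML-60218 responses. Genes were called at a Benjamini-Hochberg adjusted p under 0.05 over all genes tested. CPM values use TMM library sizes, and a standard error is the fold change divided by the root of F. All adjusted p-values come from this fit unless another setting is named. Alternatives were DESeq2 1.42.0, its size factors, other filters and thresholds, a gene length offset, a replicate block, the libraries of 1 contrast alone, the removal of genes with unstable read assignment, and each library left out.

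The members and lists were chosen with earlier results of these data known. Genes were named as POLR3G, POLR3GL and MAF1, the 15 largest called rises and falls of at least 5 CPM without overlap, up to 4 called members of each list with at least 3, and up to 8 per direction for the difference and for calls in both settings. Some genes that this rule gives are not reported here. Other list members that are named were chosen after their values were seen. Figures were drawn with matplotlib 3.10.9.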

Additional observations from a re-analysis of the deposited data

Results flagged for a closer look

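The response to ML-60218 with CHX differed from that without it for 1006 genes by the test of the difference itself, and the values here are log2 fold changes with CHX minus those without it. The genes listed are some of those for which that difference was called, and no explanation of it was tested. FMR1, SERPINB2, ARAP2, ASNS and NQO1 were not described above, while the others were.

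Early genes with a larger response under CHX gave 2.47 for FOSB, 1.42 for NR4A3, 1.28 for DUSP2, 1.14 for EGR3, 0.68 for FOSL2, 0.25 for ZFP36 and 0.2 for IER2. For FOSB, FOSL2 and DUSP2 the call held in each of the 12 runs that left out 1 library. It was lost in 10 runs for IER2, 7 for ZFP36, 7 for EGR3 and 6 for NR4A3. EGR3 also lost it with the length offset, as given above. NAB2 had the opposite sign, with -1.16.

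Sterol genes gave 0.91 for INSIG1, 0.91 for MSMO1, 0.7 for HMGCS1, 0.7 for IDI1, 0.64 for SQLE and 0.44 for STARD4, all larger under CHX and each called in all 12 such runs.

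Other genes with a larger response under CHX gave 1.92 for FMR1, 1.46 for RNF150, 1.36 for CAPN5, 1.32 for CCNG2, 1.12 for SERPINB2, 0.85 for HSPA4L, 0.51 for HSPA5, 0.42 for FNIP2, 0.4 for RRP12 and 0.33 for CCL5. The call was lost in 7 runs for CAPN5, 6 for RNF150, 6 for CCL5 and 2 for FMR1. FNIP2 lost it with the length offset, as given above. FMR1 and SERPINB2 were not called with CHX, where their log2 fold changes were 0.30 and -0.42, and fell without it by 1.62 and by 1.55. Without CHX replicate 2 the fall of SERPINB2 with CHX was called (-0.61, adjusted p = 0.0143).

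Genes with a smaller or opposite response under CHX gave -1.69 for SETD1A, -1.45 for ZNF366, -1.42 for PLIN2, -1.38 for CLIP2, -1.37 for SLAMF8, -1.29 for CCL2, -1.25 for ARAP2, -1.21 for RAB7B, -1.09 for HMOX1, -1.06 for SLC7A11, -0.71 for RELB, -0.7 for PDK4, -0.62 for BCL3, -0.55 for FBXO32, -0.48 for SPI1, -0.45 for NR1H3, -0.45 for SRXN1, -0.43 for GIMAP4, -0.43 for ASNS, -0.39 for NQO1 and -0.38 for SLC7A5. The call was lost in 10 runs for ASNS, 10 for FBXO32, 8 for NR1H3, 8 for GIMAP4, 3 for SLC7A5, 2 for SETD1A and 1 for SLC7A11. Genes that lost it with the length offset included SETD1A (adjusted p = 0.236), ARAP2 (0.157), NR1H3 (0.122), FBXO32 (0.556) and ASNS (0.196). SLC7A11 lost it with that offset too, as given above.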

How the results depend on the processing

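At an adjusted p under 0.01, 746 genes were higher and 531 lower with ML-60218 in CHX, 787 and 504 without CHX, 107 and 183 for the difference, and 251 and 144 in both settings. With the length offset these were 824 and 645 with CHX, 711 lower without CHX, 174 and 282 for the difference, and 318 and 199 in both. Leaving out 1 library gave 956 to 1241 higher and 688 to 1075 lower with CHX, 876 to 1188 and 644 to 1064 without CHX, 242 to 469 and 359 to 697 for the difference, and 362 to 516 and 238 to 408 in both.

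Log2 fold changes that changed sign belonged to genes that were not called, apart from SLC39A10 (-0.0413) and ATP13A3 (-0.005), which did so with the length offset, as did SPI1 (0.0313) and SREBF1 (0.0313). Over the runs without 1 library the range was -0.2524 to 0.7273 for POLR3G, -0.0492 to 0.0111 for POLR3GL, -0.0083 to 0.6511 for FMR1, -0.1088 to 0.1112 for ZNF366, -0.0757 to 0.0875 for RAB7B, -0.0057 to 0.2644 for EGR2, -0.0392 to 0.0188 for SREBF1, -0.0475 to 0.0248 for SPI1 and -0.0351 to 0.078 for ASNS. The causes were not tested.

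With a replicate block, 1327 genes were higher and 1142 lower with CHX, and 414 and 512 for the difference. Same-numbered libraries of the 2 groups correlated in their deviations at 0.094, 0.154 and 0.087, each library best with its own number, which is a hint from the data and not from the design. The numbers are not stated to pair samples. A group size of 3 limits the precision of every value.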

Other observations

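Families outside the lists were looked at after their values were seen. Of 469 zinc finger genes with ZNF symbols, 63 were called higher (13.4%) and 26 lower (5.54%) with ML-60218 in CHX. Among all genes tested these shares were 8.75% and 7.75%. Without CHX 13 (2.77%) were higher and 31 (6.61%) lower, against 8.48% and 7.05% of all genes. The difference was called higher for 41 (8.74%) and lower for 4 (0.853%), against 2.86% and 3.70% of all genes. Of 6 genes of the GIMAP family, GTPases of immune cells, none was higher and 5 were lower with CHX, and 3 were lower without it. Of 12 genes of the SLC16 family, which holds the monocarboxylate transporters, 5 were higher and none lower with CHX. The counts without CHX were also 5 and none, and whether the genes were the same was not counted. A further family, the adhesion G protein-coupled receptors, had 20 genes tested. With CHX 1 was higher and 1 lower (5% each), and without it 2 were higher and none lower. The difference was called lower for 3 of these (15%) and higher for none. The shares of all genes given above apply to each family.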
